A study of Homo sapiens with 4 samples.

Results

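TRIP6, a LIM domain protein of focal adhesions, was examined together with 7 relatives and partners in the metastatic subline FLO-1LM and in FLO-1 parental cells. The 8 genes were TRIP6, ZYX, LPP, LIMD1 and WTIP of the zyxin family, FBLIM1 (migfilin), and PXN (paxillin) with its close relative TGFB1I1 (Hic-5), out of 63677 genes listed in the files. TRIP6 was chosen by its higher count in FLO-1LM in these same libraries, so its difference is given as a description with no test, and the other 7 were taken for their family or their place in focal adhesions. FLO-1 is an established line from a human adenocarcinoma of the esophagus. FLO-1LM was grown out of a liver metastasis that FLO-1 formed after several rounds in NSG mice, which lack most lymphocyte function. FLO-1LM is 1 subline, so a difference between the lines belongs to that derivation. RNAseq was available for 2 libraries of each line, and the sources do not say whether these came from separate cultures, so p-values measure the spread between these libraries, which may be technical. Both lines were untreated and were harvested before full confluency, a day after fresh medium. The comparison asked whether the rest of the family moved with TRIP6 between the lines.

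Zyxin-family proteins carry LIM domains, which are zinc-binding folds that dock other proteins, after a flexible proline-rich stretch. They sit on focal adhesions, stress fibres and cell-cell junctions, respond to tension on actin, and also enter the nucleus. Several members bind the LATS kinases of the Hippo pathway. Paxillin and Hic-5 instead combine LIM domains with short leucine-rich motifs that recruit focal adhesion kinase and vinculin, and migfilin links filamin to the integrin activator kindlin. TRIP6 is known in cancer cells as an adaptor downstream of lysophosphatidic acid receptors, where it takes part in migration.

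Total counts on genes ran from 19060310 to 25920336 per library, and 17143 genes had enough counts to be tested. Levels are in CPM, which are read counts scaled to a library of fixed size after TMM normalization. Mitochondrial genes took 9.57% and 9.96% of counts in FLO-1LM and 7.93% and 8.31% in parental cells. The 8 epithelial markers summed to 490 to 506 CPM in FLO-1LM and to 864 to 875 in parental cells. Most of this was KRT8 (means 273 in FLO-1LM and 443.5 in parental cells) and KRT18 (184.3 and 291.4). In the same order, CDH1 was at 18.1 and 84.2 CPM, KRT19 at 12.9 and 32.0, and CLDN4 at 8.20 and 17.15. CLDN7 was at 1.13 and 0.806 CPM, and EPCAM and ESRP1 were near 0 in both lines. Fibroblast markers summed to 12.5 to 14.4 CPM in FLO-1LM and 11.0 to 13.8 in parental cells, with COL3A1, DCN and POSTN at 0. COL1A1 made up most of this sum, with means of 11.7 CPM in FLO-1LM and 11.1 in parental cells. Smooth muscle markers summed to 0.808 to 1.20 CPM and 1.62 to 1.91 CPM, with ACTG2 at 0. Leukocyte markers reached at most 0.932 CPM with PTPRC at 0, endothelial markers 0.313 CPM with KDR at 0, and hepatocyte markers 0.272 CPM with ALB, TTR and FGB at 0. The part of the epithelial and mitochondrial differences in the results below was not tested. In bulk RNA, fewer cells that express a gene and less of its RNA per cell cannot be told apart.

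The stretches before the RefSeq start sites of TRIP6 and ZYX are shown because both genes lie on chromosome 7 and belong to the same family. The gap between the lines was much wider at TRIP6. The TRIP6 stretch lies at chr7:100464759-100465008 and the ZYX stretch at chr7:143078188-143078437, both on the plus strand of GRCh37. Each holds the 250 bases before the start site given by RefSeq, whose table is on GRCh38.p14, and each matched chromosome 7 of GRCh37 at 1 place. By the GENCODE gene positions used below, TRIP6 begins at 100465009, right after its stretch. ZYX begins at 143078388, inside its stretch, so the end of that stretch lies within the gene by GENCODE. Capitals mark matches to the motifs described next.
TRIP6: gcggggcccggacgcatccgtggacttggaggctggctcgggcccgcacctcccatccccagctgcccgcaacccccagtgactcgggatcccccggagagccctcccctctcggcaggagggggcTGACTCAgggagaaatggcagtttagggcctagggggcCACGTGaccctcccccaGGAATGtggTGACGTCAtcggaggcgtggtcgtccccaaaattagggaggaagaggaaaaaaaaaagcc
ZYX: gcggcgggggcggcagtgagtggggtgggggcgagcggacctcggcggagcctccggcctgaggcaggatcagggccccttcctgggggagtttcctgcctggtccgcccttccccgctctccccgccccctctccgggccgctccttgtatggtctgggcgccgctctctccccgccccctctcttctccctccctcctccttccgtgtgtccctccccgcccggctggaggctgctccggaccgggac

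Within the 300 bases from 250 before to 50 after the start, TRIP6 had an AP-1 match (TGACTCA) at -124 to -118, an E-box (CACGTG) at -86 to -81, a TEAD-type match (GGAATG) at -69 to -64 and a CRE (TGACGTCA) at -60 to -53. AP-1 is the FOS and JUN site, TEAD proteins are the DNA-binding partners of YAP, and the CRE is the cyclic AMP response element. The ZYX window held no match to these motifs or to the CAGGTG E-box bound by ZEB and SNAI factors, which was also missing from the TRIP6 window. Among 35116 RefSeq promoters, searched on both strands, 14% held GGAATG, 1.85% TGACGTCA, 7.71% TGANTCA, 7.26% CACGTG and 20.6% CAGGTG. The motifs were picked after the TRIP6 sequence had been read, and a letter match does not show a bound site. The table held windows for 7 of the 8 genes, in 18 windows, and none for LIMD1. Several of these motifs were also found at other members. LPP, with 7 windows, had GGAATG in 2, TGANTCA in 3 and TGACGTCA in 1, though never all in the same window. The single WTIP window had 3 GGAATG matches. PXN had GGAATG in 1 of its 2 windows and CAGGTG in the other, FBLIM1 had CAGGTG in 1 of 3, and the 3 TGFB1I1 windows held none of the motifs.

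TRIP6 stood well apart between the lines. The gene (ENSG00000087077, chr7:100465009-100471076, plus strand, GRCh37) had 473 and 508 reads in the FLO-1LM libraries and 184 and 152 in the parental libraries. After scaling, these were 21.2 and 19.7 CPM in FLO-1LM and 8.35 and 7.93 CPM in parental cells. Both FLO-1LM libraries thus lay above both parental libraries, with no overlap and a small spread inside each line. The means were 20.5 ± 1.06 and 8.14 ± 0.297 CPM (SD, n = 2), a 2.51-fold difference (95% interval 1.99 to 3.17), or 1.33 on the log2 scale with a standard error of 0.160. The 4 ratios between single libraries of the lines ran from 1.24 to 1.42 on the log2 scale. Of 12047 genes with a mean of at least 100 counts, 1 had a larger positive fold change, ADGRL2. The standard error of TRIP6 was close to the 0.154 that was the median of 3991 genes with similar counts. The log2 fold change stayed between 1.28 and 1.38 when any 1 library was left out.

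**Figure D1:**
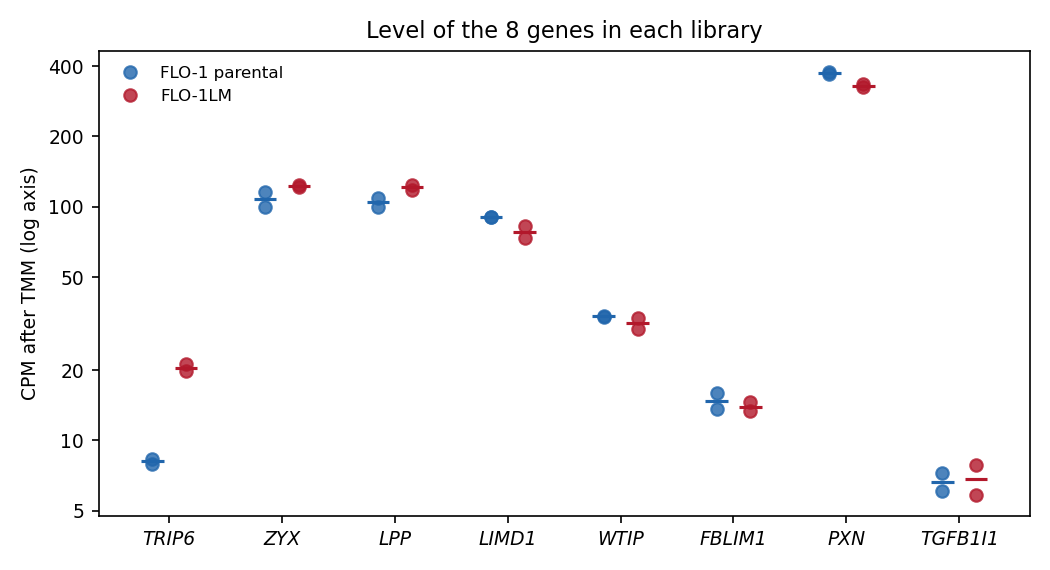
Level of each of the 8 genes in CPM after TMM scaling, on a log axis, with 1 point for each of the 4 libraries. TRIP6 sits at 19.7 and 21.2 CPM in FLO-1LM and at 7.93 and 8.35 CPM in parental cells, while the libraries of the other genes lie close together.

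None of the other 7 genes passed the test. Of all 8, 1 passed an adjusted p of 0.05 as higher in FLO-1LM (TRIP6, which the choice of genes fixed) and 0 as lower by edgeR's quasi-likelihood test, when 0.402% of all tested genes were called higher and 1.83% lower. DESeq2 and limma voom called the same number. The log2 fold changes of the other 7 ran from -0.21 to 0.21, their 95% intervals from -0.43 to 0.52, and their adjusted p-values from 0.258 to 0.971. Before adjustment, 4 of the 7 (ZYX, LPP, LIMD1 and PXN) had p below 0.05, a pair of them higher and a pair lower, when 12.4% of all tested genes did. The libraries of the lines did not overlap for 3 genes higher in FLO-1LM (TRIP6, ZYX and LPP) and 3 lower (LIMD1, WTIP and PXN). Such separation was common among tested genes, at 20.9% higher and 21.7% lower. The median log2 fold change of the 8 was -0.02, beside 0.00 over all tested genes.

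**Figure D2:**
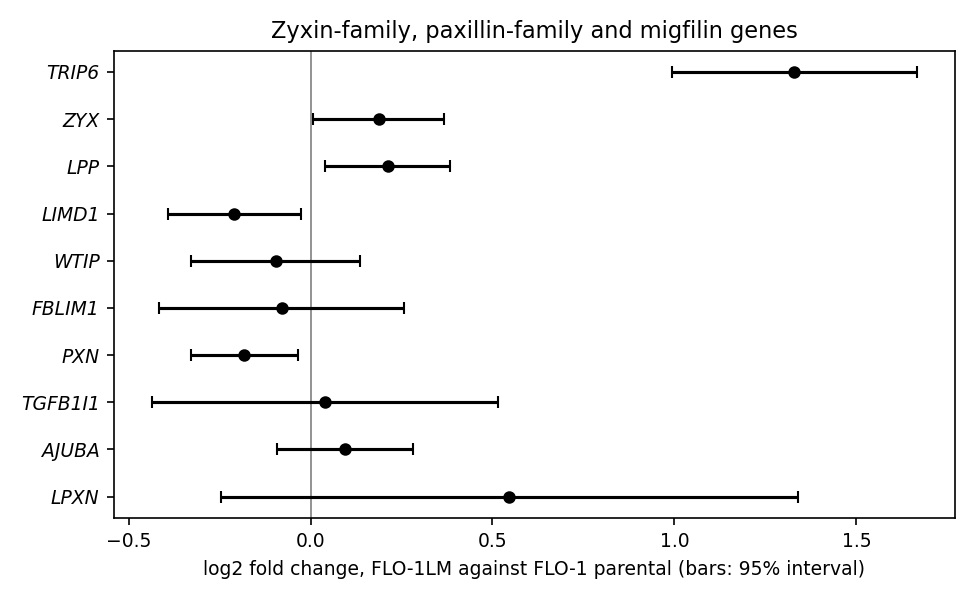
Log2 fold change of each gene, FLO-1LM against parental, with its 95% interval from the edgeR fit on 2 libraries per line. TRIP6 lies at 1.33, and the intervals of the other 7 stay between -0.43 and 0.52.

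ZYX (ENSG00000159840, chr7:143078388-143088204, plus strand) encodes zyxin, which brings Ena/VASP proteins to strained stress fibres. It had 124 and 121 CPM in FLO-1LM and 99.9 and 116 CPM in parental cells, with 2771, 3126, 2202 and 2226 reads in the same order. The second parental library came close to the FLO-1LM libraries. The log2 fold change was 0.19 ± 0.086 (SE), with an adjusted p of 0.379 (edgeR). LPP (ENSG00000145012, chr3:187871072-188608460, plus strand), the lipoma-preferred partner, which binds alpha-actinin and VASP, had 124 and 118 CPM in FLO-1LM and 109 and 99.4 CPM in parental cells. Its log2 fold change was 0.21 ± 0.082 (SE), with an adjusted p of 0.265 (edgeR). Both genes thus had slightly higher levels in FLO-1LM, by amounts that did not pass the test.

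LIMD1 (ENSG00000144791, chr3:45596886-45727833, plus strand) is a tumor suppressor scaffold that binds LATS kinases and takes part in microRNA silencing. It had 73.4 and 82.4 CPM in FLO-1LM and 90.1 and 90.1 CPM in parental cells. Its direction was opposite to that of TRIP6 in every pair of libraries, at -0.21 ± 0.087 (SE) on the log2 scale with an adjusted p of 0.312 (edgeR). The log2 fold change was -0.13 without the first FLO-1LM library and -0.30 without the second. WTIP (ENSG00000142279, chr19:34972663-35003209, plus strand), which binds the transcription factor WT1, had 30.0 and 33.4 CPM in FLO-1LM and 33.8 and 34.1 CPM in parental cells. The second FLO-1LM library nearly met the parental ones, and the log2 fold change was -0.10 ± 0.111 (SE), with an adjusted p of 0.814 (edgeR). AJUBA, the remaining zyxin-family gene and a partner of Aurora A and LATS kinases, had 97.8 and 112 CPM in FLO-1LM and 93.6 and 103 CPM in parental cells. These overlapped, at 0.09 on the log2 scale (95% interval -0.09 to 0.28).

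Among the partners, FBLIM1 (ENSG00000162458, chr1:16083102-16113089, plus strand) had 14.6 and 13.3 CPM in FLO-1LM and 13.6 and 15.9 CPM in parental cells. The lines overlapped, with a log2 fold change of -0.08 ± 0.160 (SE) and an adjusted p of 0.905 (edgeR). TGFB1I1 (ENSG00000140682, chr16:31482906-31489281, plus strand), a paxillin relative induced by TGF-beta, had 7.86 and 5.87 CPM in FLO-1LM and 6.08 and 7.25 CPM in parental cells. The lines overlapped here too. Its log2 fold change was 0.04 ± 0.226 (SE), and with 134 to 175 reads per library its interval of -0.43 to 0.52 was the widest of the 8. LPXN (leupaxin), the third paxillin-type gene, had 3.46 and 2.60 CPM in FLO-1LM and 1.45 and 2.71 CPM in parental cells, at 0.55 on the log2 scale with an interval of -0.25 to 1.34.

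PXN (ENSG00000089159, chr12:120648242-120703574, minus strand), the scaffold on which focal adhesion kinase and Crk assemble, had the most reads of the 8. It had 326 and 334 CPM in FLO-1LM and 378 and 372 CPM in parental cells, from 7129 to 8610 reads per library. Both FLO-1LM libraries were lower, by a margin that did not pass the test, at -0.18 ± 0.070 (SE) and an adjusted p of 0.258 (edgeR). An antisense gene at the same locus, PXN-AS1 (chr12:120639077-120651036, plus strand), fell further. It had 120 and 185 reads in FLO-1LM and 291 and 246 in parental cells, and its log2 fold change was -1.05 with an adjusted p of 0.00609 (edgeR). PXN-AS1 shares 1769 of its 4685 exonic bases with PXN exons on the other strand. The libraries were directional, but the strand setting of the counting is not given in the sources used here, so how many of these reads came from PXN was not tested. Opposite-strand genes at ZYX (EPHA1), LPP (LPP-AS2) and LIMD1 (LIMD1-AS1) had adjusted p-values of 0.326, 0.833 and 0.576 (edgeR). No tested gene overlapped the exons of TRIP6.

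Levels of different genes were compared per kilobase of merged exon sequence. In FLO-1LM the order was PXN at 44.3, ZYX at 37.6, AJUBA at 17.9, TRIP6 at 8.02 ± 0.415, LIMD1 at 6.14 ± 0.502, LPP at 4.59, FBLIM1 at 3.21, WTIP at 2.33, TGFB1I1 at 1.27 and LPXN at 1.23 CPM per kb (mean of 2 libraries, with SD for neighbours of TRIP6). TGFB1I1 and LPXN overlapped. In parental cells the means were 50.2, 33.1, 16.7 and 3.19 ± 0.116 CPM per kb for PXN, ZYX, AJUBA and TRIP6, and 7.11 for LIMD1, 3.96 for LPP, 3.39 ± 0.374 for FBLIM1 and 2.49 for WTIP. TRIP6 was thus the fourth of 10 genes in FLO-1LM and the seventh in parental cells, where its 3.27 and 3.11 overlapped the 3.13 and 3.66 of FBLIM1. By the length of the canonical transcript, an alternative chosen after seeing the data, TRIP6 ranked 4 and 6.

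Within the 6 zyxin-family genes, TRIP6 took 11.0% and 9.98% of the summed CPM per kb in FLO-1LM and 5.15% and 4.46% in parental cells. ZYX supplied about as much in each line, at 50.3% and 48.0% in FLO-1LM and 48.2% and 51.1% in parental cells. LIMD1 took 7.65% and 8.40% in FLO-1LM and 11.2% and 10.2% in parental cells. The summed CPM of the 6 genes was 471 and 487 in FLO-1LM and 435 and 451 in parental cells, a ratio of 1.08. Without TRIP6 the other 5 summed to 449 and 468 in FLO-1LM and 427 and 443 in parental cells, a ratio of 1.05.

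**Figure D3:**
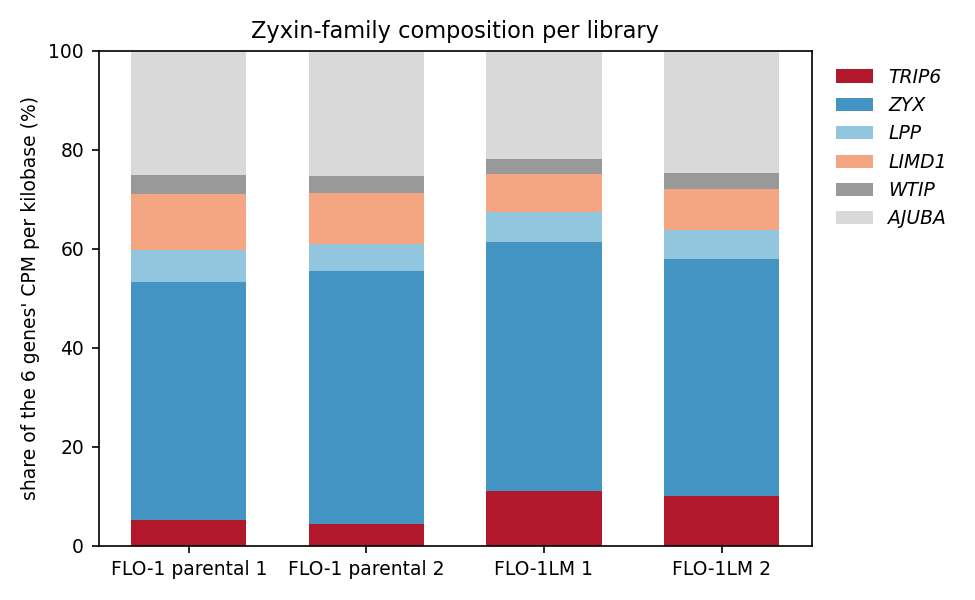
Share of each of the 6 zyxin-family genes in their summed CPM per kb, in percent, in each of the 4 libraries. TRIP6 makes up 9.98% and 11.0% in FLO-1LM and 4.46% and 5.15% in parental cells, and ZYX is the largest share in every library.

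Other LIM proteins of adhesions and the actin cytoskeleton had no call in either direction. Of 37 listed genes, 34 were tested and 0 passed an adjusted p of 0.05 by edgeR, DESeq2 or limma voom, with 4 at an unadjusted p below 0.05 in edgeR. With 0.402% of all tested genes called higher and 1.83% lower, 0 calls in a list of this size is near the background, as it is for the next lists and for the chromosomal neighbours. The median log2 fold change of the 34 LIM genes was -0.01, 29 of the 34 lay within 0.25 of 0, and the rest reached from -0.66 to 1.24. CSRP2, a muscle-type LIM protein that crosslinks actin, had 9.34 and 10.8 CPM in FLO-1LM and 6.49 and 6.21 CPM in parental cells. Its log2 fold change was 0.66 ± 0.198 (SE) with an adjusted p of 0.108 (edgeR). Calls in this list changed when the first FLO-1LM library was left out, where CSRP2 was at 0.76. CSRP2 was at 0.56 without the second. LMO7 (0.23) and MICALL2 (-0.20) were the next by size among genes with a mean of at least 100 counts.

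Known binding partners of the family had no call either. Of 28 listed genes, 26 were tested and 0 passed by edgeR, DESeq2 or limma voom, with 4 at an unadjusted p below 0.05 in edgeR. The median was 0.02 on the log2 scale and 24 of the 26 lay within 0.25 of 0. TRAF6, a ubiquitin ligase of NF-kB signalling that TRIP6 binds, had 15.2 and 16.7 CPM in FLO-1LM and 11.6 and 11.9 CPM in parental cells. This was 0.44 ± 0.159 (SE) on the log2 scale, with an adjusted p of 0.213 (edgeR). The actin crosslinkers ACTN1 and FLNC were at 0.22 each, with adjusted p-values of 0.173 and 0.387 (edgeR). ACTN1 passed without the second FLO-1LM library (0.26, adjusted p = 0.0338), and FLNC passed without the first (0.35, adjusted p = 0.0143), where ACTN4 passed as lower (-0.24, adjusted p = 0.0358). The Hippo kinases LATS1 and LATS2, named after their values were seen, were at -0.15 ± 0.087 and 0.07 ± 0.082 (SE).

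The integrin-linked adhesion core had 29 tested genes of 32, with 0 called by edgeR, DESeq2 or limma voom and 3 at an unadjusted p below 0.05 in edgeR. Its median log2 fold change was -0.03, and 26 of the 29 lay within 0.25 of 0. TNS2, a tensin that ties integrins to actin, had 25.1 and 19.7 CPM in FLO-1LM and 28.8 and 28.2 CPM in parental cells, at -0.35 with an adjusted p of 0.261 (edgeR). ITGB1, the shared beta chain of most matrix-binding integrins, was at 0.18 with an adjusted p of 0.293 (edgeR), and NCK2, an adaptor, was at -0.19. Calls in this list changed when the first FLO-1LM library was left out, where TNS2 was at -0.53 and ITGB1 at 0.27. Without the second, TNS2 was at -0.18 and ITGB1 at 0.09.

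Targets of serum response factor (SRF), which turns on cytoskeletal genes when actin assembles, had 4 calls. Of 20 listed genes, 19 were tested, 3 rose and 1 fell, beside 0.402% and 1.83% of all tested genes, and the median log2 fold change was 0.11. At an unadjusted p below 0.05 there were 8 of the 19, beside 12.4% of all tested genes. The list was chosen with earlier results of these data known, so these shares do not test SRF targets as a set. TPM4 and TPM1, tropomyosins that coat actin filaments, rose by 0.33 (adjusted p = 0.0342) and 0.31 (adjusted p = 0.0490) on the log2 scale in edgeR. TPM1 had 118 and 118 CPM in FLO-1LM and 96.3 and 94.5 CPM in parental cells. CCN1, a matricellular protein also used as a YAP readout, had 122 and 138 CPM in FLO-1LM and 104 and 102 CPM in parental cells, and rose by 0.33 (adjusted p = 0.0435, edgeR). EGR1, an immediate early transcription factor, had 18.3 and 15.2 CPM in FLO-1LM and 25.9 and 25.3 CPM in parental cells, and its change was -0.62 ± 0.138 (SE) with an adjusted p of 0.0209 (edgeR). TAGLN, an actin-binding protein of smooth muscle, was the other named gene, at 0.46 with an adjusted p of 0.412 (edgeR). CALD1 (caldesmon), named after its values were seen, had the widest gap in the list but few reads, 53 and 126 in FLO-1LM and 20 and 29 in parental cells. Its log2 fold change was 1.60 ± 0.422 (SE), with an adjusted p of 0.0553 (edgeR). DESeq2 and limma voom called the same 4 genes. In edgeR, CALD1 passed with no low-count filter (adjusted p = 0.00107) and with at least 10 counts in every library (adjusted p = 0.0396). The calls of CALD1, TPM2 and ACTB also depended on which FLO-1LM library was left out. CALD1 was at 2.03 without the first FLO-1LM library and at 0.99 without the second. TPM2 (0.25) was at 0.33 without the first and at 0.16 without the second. ACTB (0.16) was at 0.06 without the first and at 0.26 without the second. None of the 4 passed when either parental library was left out, with EGR1 at -0.60 and -0.63, TPM4 at 0.39 and 0.27, CCN1 at 0.35 and 0.32 and TPM1 at 0.32 and 0.29. TPM4 (0.25) also missed without the first FLO-1LM library and CCN1 (0.24) without the second, and the 3 that rose missed with library totals in place of TMM scaling.

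TRIP6 was also set beside its neighbours on chromosome 7. Of the 5 tested coding genes on each side, 0 of 10 passed by edgeR, DESeq2 or limma voom, with 1 (SRRT) at an unadjusted p below 0.05 in edgeR. Their log2 fold changes ran from -0.34 to 0.23. SLC12A9, a transporter-family gene on the same strand that ends 0.38 kb before TRIP6, had 32.1 and 36.2 CPM in FLO-1LM and 30.4 and 32.3 CPM in parental cells, which overlapped. SRRT, which takes part in microRNA processing and begins 1.65 kb after TRIP6, had 138 and 134 CPM in FLO-1LM and 152 and 154 CPM in parental cells, at -0.17 with an adjusted p of 0.366 (edgeR). EPHB4, a receptor tyrosine kinase 39.86 kb away, was at -0.07. The 10 genes reached 188.21 kb before TRIP6 and 257.69 kb after it.

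**Figure D4:**
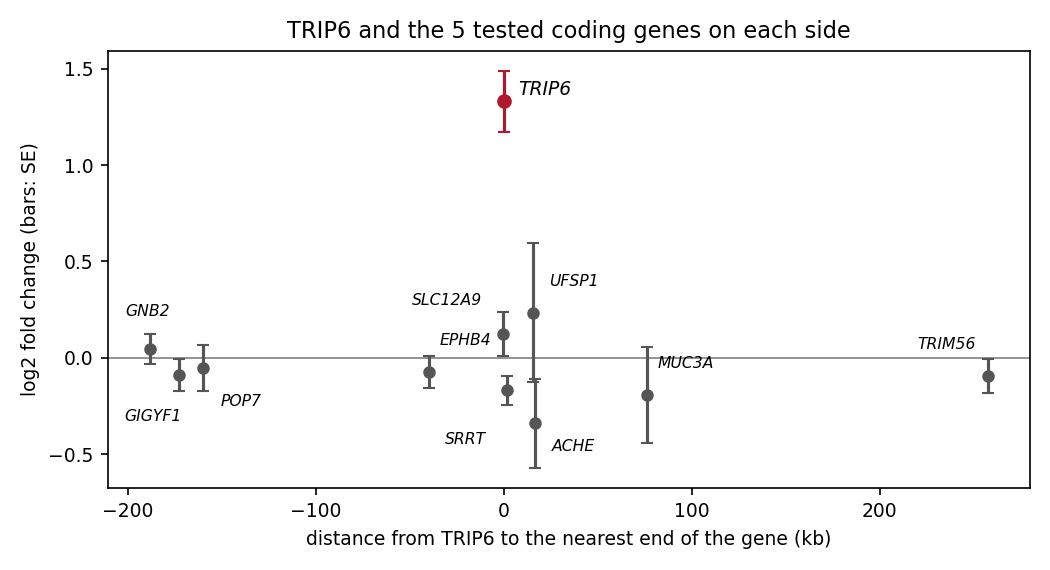
Log2 fold change with its SE for TRIP6 and the 5 tested coding genes on each side, against the distance in kb to the nearest end of each gene. TRIP6 is at 1.33, and the 10 neighbours lie between -0.34 and 0.23.

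The genes whose 4-library pattern was nearest to TRIP6 were RPL23P8, NR2F1, SYNE1, ADGRL2 and MLLT3, among 12046 other genes with a mean of at least 100 counts. Likeness was the Euclidean distance between centred log2 CPM values, at 0.138, 0.213, 0.260, 0.292 and 0.304 in that order. They were picked for this likeness over 4 libraries, so no test is given. NR2F1, a nuclear receptor, had 28.2 and 26.3 CPM in FLO-1LM and 13.1 and 12.0 CPM in parental cells. SYNE1, which joins the nuclear envelope to actin, had 9.61 and 9.05 CPM in FLO-1LM and 4.04 and 4.49 CPM in parental cells. ADGRL2, an adhesion receptor, had 17.5 and 16.7 CPM in FLO-1LM and 5.44 and 6.42 CPM in parental cells, a wider gap than that of TRIP6. RPL23P8 is a processed pseudogene whose reads may come in part from its parent gene RPL23, so its value is uncertain. None of the 5 belongs to the LIM lists above.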

How the data were processed

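RNAseq was compared between 2 FLO-1LM and 2 FLO-1 parental libraries, grouped by their sample labels. The authors extracted total RNA, made directional libraries, called bases with bcl2fastq 2.17 and trimmed with Trimmomatic 0.30 (named in the submitters' processing notes), mapped to GRCh37, and deposited raw read counts per Ensembl gene, without normalization. How reads were counted, with which program and strand setting, is not given in the sources used here.

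In R 4.3.3, edgeR 4.0.16 (filterByExpr with a minimum count of 10, TMM, quasi-likelihood test) was run on all genes. P-values were adjusted over 17143 genes by Benjamini-Hochberg, with a threshold of 0.05. An exact permutation test of 2 against 2 libraries cannot go below p = 0.333. DESeq2 1.42.0 and limma voom 3.58.1 were among 11 alternatives, 4 of which leave out a library. The fits were tested on simulated data with larger changes than most of those given here, so small changes were not covered. Replicates differed by more than sampling noise (chi-square per degree of freedom 5.2 in parental and 10.9 in FLO-1LM). Library depth set a floor of 0.117 to 0.157 CPM, equal to 3 counts, which covers counting error only. The fit's 95% intervals cover the spread between libraries.

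Gene positions and lengths came from GENCODE v44 lifted to GRCh37, later than the annotation counted on. PECAM1 was not matched and was not analysed here, nor were protein features. Motif searches used RefSeq promoters. The genes and lists were chosen with earlier results of these data known. Named list genes were those past the threshold (up to 10) and the 3 largest changes with a mean of at least 100 counts. AJUBA, LPXN, 5 tested coding neighbours on each side, overlapping genes and the 5 nearest patterns were also named. ACTN4, LATS1, LATS2, CALD1, TPM2 and ACTB were named after their values were seen.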

Additional observations from a re-analysis of the deposited data

How the results depend on the processing

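The TRIP6 fold change was 1.30 to 1.33 on the log2 scale over the 7 alternatives that keep all libraries, and 1.28 to 1.38 when a library was left out. The 8 genes had 1 call in every alternative except without the second FLO-1LM library, so the range with a library left out was 1 to 2 (LIMD1). Over all genes, 147 were higher with no low-count filter, against 69, and 203 were lower with at least 10 counts in every library, against 313. Leaving out a library gave 20 to 356 higher and 96 to 696 lower, and here the line left with 1 library was assumed to vary like the other. Signs turned, with no call, only when a library was left out, over ranges of -0.18 to 0.24 for TGFB1I1, -0.19 to 0.036 for FBLIM1, -0.094 to 0.50 for LMO7, -0.0091 to 0.19 for AJUBA and -0.033 to 0.12 for GNB2. TGFB1I1 and GNB2 turned without the first FLO-1LM library (-0.18 and -0.033) and without the first parental library (-0.082 and -0.010), LMO7 without the first FLO-1LM, AJUBA without the second FLO-1LM and FBLIM1 without the second parental library. TPM4 (0.30), CCN1 (0.30) and TPM1 (0.27) were not past the threshold with library totals only, nor was TPM1 (0.30) with at least 10 counts in every library. The cause of these shifts was not tested. Library totals only moved the median of all genes by -0.03. TGFB1I1 had 134 to 175 reads per library, which limits its precision. No paired analysis was possible because the replicate numbers were given in accession order and pair no samples.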
